A study of Mus musculus with 7 samples.

Results

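The leukocyte integrin chain genes, 10 in all, were followed on 7 one-colour Agilent arrays of mouse dendritic cells, 3 labelled Gata2 knockout and 4 control. They were Itgal, Itgam, Itgax, Itgad, Itgb2, Itga4, Itgb1, Itgb7, Itga5 and Itga6. The probes were found by the RefSeq accession printed for each spot, which gave 15 probes for the 10 genes among 55681 probes on the array, and 14551 genes had a named and tested probe. All 15 passed the filter on dim probes, as did 34130 probes in all that could be tested, and 4 of the 10 genes had more than 1 probe. The brightest probe of each gene was well above background on all 7 arrays, so no member entered the test through the group in which it was brighter.

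The arrays labelled knockout came from Gata2(f/f)/ER-Cre mice, and the control arrays from Gata2(f/f) mice without the Cre. All mice were on the C57BL/6 background, were homozygous for the floxed allele and received tamoxifen between day 1 and day 10. ER-Cre is a Cre recombinase held inactive until tamoxifen binds it, and Gata2 is a DNA-binding factor that blood stem and progenitor cells need. Common myeloid progenitors were sorted from bone marrow on days 20 to 22 and grown into dendritic cells with the cytokine FLT3-L at 200 ng/ml, on bone marrow feeder cells of SJL mice. The labels do not say how dendritic cells were parted from the feeder cells, nor the animals' age, nor whether replicates came from separate animals. The p-values therefore measure only the spread between these arrays, which may be technical.

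Integrins are membrane receptors built of an alpha and a beta chain, and a chain reaches the cell surface only with its partner. The beta2 chain (Itgb2, CD18) is shared by the alpha chains of LFA-1 (Itgal), Mac-1 (Itgam), p150,95 (Itgax) and CD11d (Itgad), which bind ICAMs, complement fragment iC3b and fibrinogen among others. Itgax, as CD11c, is the surface marker by which mouse dendritic cells are commonly recognised, and Itgam, as CD11b, is carried by macrophages, monocytes, neutrophils and a class of dendritic cells. Itga4 pairs with Itgb1 to bind VCAM-1 and fibronectin, or with Itgb7 to bind the gut addressin MAdCAM-1. Itga5 and Itga6 pair with Itgb1 as receptors of fibronectin and of laminin.

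No chain passed the threshold in either direction when all tested probes were fitted together with limma (Benjamini-Hochberg adjusted p under 0.05). Over the brightest probe of each of 14551 genes, 1.08% were called higher and 0.893% lower in the same fit, 1.97% in all. Counted over single probes, 0.838% of 34130 were higher and 0.522% lower, 1.36% in all, and none of the 15 integrin probes was among them. At an unadjusted p under 0.05, Itgad was higher and Itgam and Itga6 lower, which is 3 of 10 chains beside 12.2% of all genes tested (5.67% higher and 6.54% lower). Over single probes it was 4 of 15, beside 10.6% of all probes. The median log2 fold change of the 10 chains was -0.22, and that of all 14551 genes was -0.05. Of the 10 chains, 8 had a negative value and 2 a positive one, while 57.9% of all genes had a negative value. The 95% interval of the change lay inside a 2-fold difference either way for 9 of the 10 chains. Itgam was the exception.

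**Figure D1:**
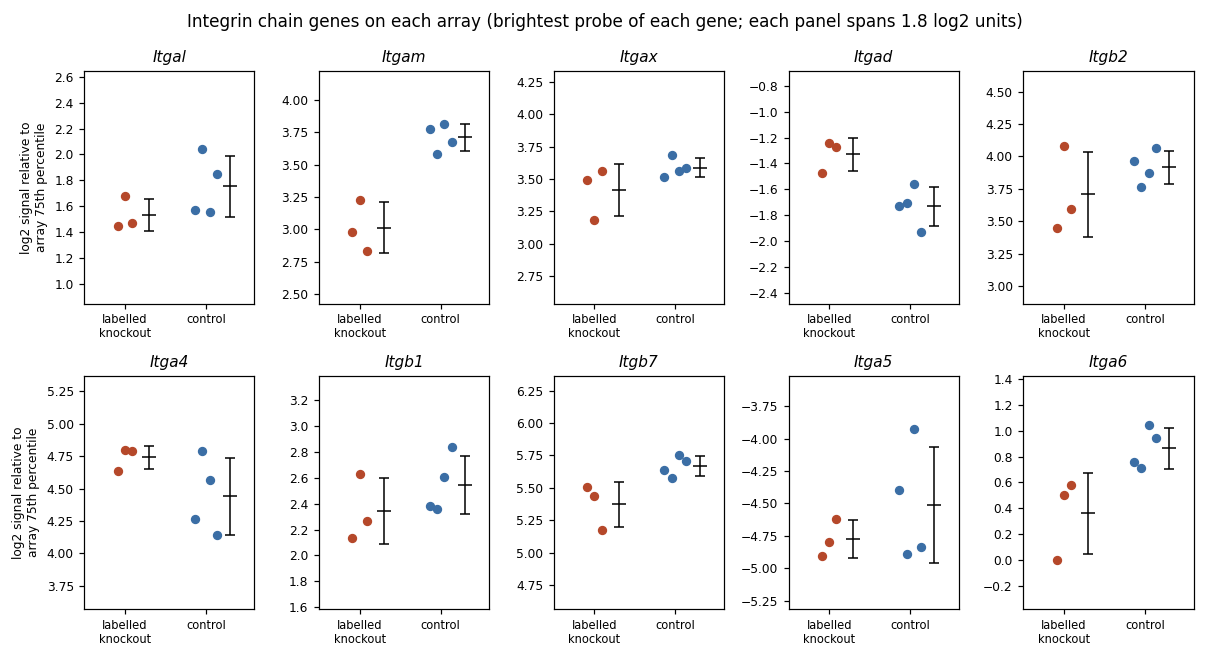
Log2 signal relative to the 75th percentile of each array for the brightest probe of each integrin gene, with 3 arrays labelled knockout left of 4 control arrays in every panel. Points are arrays, and bars give the mean ± SD. The groups do not overlap for Itgam, Itgad, Itgb7 and Itga6 and overlap for the other 6 chains.

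Gata2 itself, read as a check of the labels, was brighter in the arrays labelled knockout. Its single probe stood at 2.93, 3.00 and 3.06 there, against -0.25, 0.24, 0.36 and 0.34 in controls, as log2 signal relative to the array's 75th percentile. The groups did not overlap, and the difference was 2.82 on the log2 scale or 7.08-fold higher (SE 0.18, limma adjusted p = 0.000416). The sources used here do not say where the probe lies relative to the floxed exons, so the labels are not settled by it and every direction below is that of the arrays as labelled. The arrays shared 1 slide and 1 scan, with the groups in separate rows of the slide, so row and group cannot be told apart. By the labels the Cre was present only in the group labelled knockout, so Cre and group cannot be told apart either.

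The label of dendritic cells was set against 17 dendritic cell markers, of which 16 were tested and all 16 were well above background on every array. None of them passed the threshold. The largest difference in size was that of Cd209a, a C-type lectin of monocyte-related dendritic cells, at -0.66 with every array labelled knockout below every control (limma adjusted p = 0.118). Ccr7, the chemokine receptor of migrating dendritic cells, had a log2 fold change of 0.35 (limma adjusted p = 0.653). Flt3, the receptor of the cytokine used in the culture, had a log2 fold change of 0.02, and Zbtb46, a transcription factor of conventional dendritic cells, one of -0.34 (limma adjusted p = 0.966 and 0.577). The mean log2 signal of these 16 genes ran from 3.26 to 3.36 in the arrays labelled knockout and from 3.32 to 3.47 in controls.

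Itgax, the CD11c chain, read 3.50, 3.19 and 3.56 in the arrays labelled knockout and 3.52, 3.69, 3.56 and 3.59 in controls. The groups overlapped, and replicate 2 labelled knockout was the lowest array. The log2 fold change was -0.18 (SE 0.14, limma adjusted p = 0.707). Its 95% interval ran from -0.50 to 0.15, which is 0.705 to 1.11 times the level of controls. Without replicate 2 labelled knockout the value was -0.061.

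Itgam, the alpha chain of Mac-1 and of complement receptor 3, showed the smallest p of the 10 chains. Its brightest probe, A_55_P1977934, read 2.98, 3.22 and 2.83 in the arrays labelled knockout and 3.77, 3.58, 3.82 and 3.67 in controls. Every array labelled knockout lay below every control. It averaged 3.01 ± 0.20 over arrays labelled knockout (SD, n = 3) and 3.71 ± 0.11 over controls (SD, n = 4), a difference of -0.70 on the log2 scale or 1.62-fold lower (SE 0.15, 95% interval -1.04 to -0.36). With all probes in the fit this did not pass (limma adjusted p = 0.0834). With 1 probe per gene in the fit it passed where the probe of highest mean was taken (limma adjusted p = 0.0409) and did not where the probe of largest interquartile range was taken, which was the same Itgam probe (limma adjusted p = 0.0540). In the first of these fits, of 14551 genes 1.38% were called lower and 1.49% higher. It also passed with normexp background correction, without a filter on dim probes, with an intensity trend in the variance and with array weights (adjusted p = 0.0341, 0.0187, 0.0361 and 0.00917). In that order, these fits called 300 of 34130, 9267 of 55678, 227 of 34130 and 558 of 34130 probes lower. Over the 20 alternatives the adjusted p of this Itgam probe ran from 0.00917 to 0.417 and its log2 fold change from -0.85 to -0.61. Without replicate 1 labelled knockout that change was -0.68.

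The other Itgam probes had log2 fold changes nearer to 0, and the interval of 1 of them includes the value of the brightest probe. Probe A_55_P1977929, which carries the same accession, read -2.64, -2.26 and -2.10 in the arrays labelled knockout and -1.86, -1.89, -2.11 and -1.53 in controls. Its log2 fold change was -0.49 (SE 0.19, limma adjusted p = 0.421), and replicate 3 labelled knockout lay just above control replicate 3. The 95% interval of this probe, -0.94 to -0.04, includes the -0.70 of the brightest probe. Probe A_55_P1977926, which carries the accession of the other Itgam transcript, read -2.49, -2.45 and -2.56 in the arrays labelled knockout, inside the range of the controls from -2.69 to -2.19. Its log2 fold change was -0.07 (SE 0.15, limma adjusted p = 0.913), and the 95% interval, -0.42 to 0.29, does not reach the -0.70 of the brightest probe. Probes of 1 gene differ in target sequence and transcripts, so these levels are not set against each other.

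Of 17 monocyte and macrophage markers, 12 were tested, 6 fell and none rose, with a median log2 fold change of -0.96 beside -0.05 over all genes. The mean log2 signal of the 12 ran from -0.30 to 0.10 in the arrays labelled knockout and from 1.14 to 1.63 in controls. Cd14, a co-receptor for lipopolysaccharide, fell 3.05-fold and Maf, a transcription factor of macrophages, 3.44-fold (limma adjusted p = 0.000764 and 0.0178). C1qc, a chain of complement C1q, also fell (limma adjusted p = 0.0351), and no fold is given because 1 of 3 arrays labelled knockout measured it above background.

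Of 14 neutrophil markers, 13 were tested and 1 fell, Mmp8, a collagenase of neutrophil granules, by 0.85 on the log2 scale (limma adjusted p = 0.0361). The mean of the 13 was 0.33, -1.31 and -1.59 on replicates 1, 2 and 3 labelled knockout and between 0.42 and 0.73 in controls. Replicate 1 labelled knockout stood nearer to the controls than to its own group in that list. In a mixed culture fewer cells of a type and less RNA per cell cannot be told apart, and the part of monocyte, macrophage or neutrophil RNA in the Itgam difference was not tested.

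**Figure D2:**
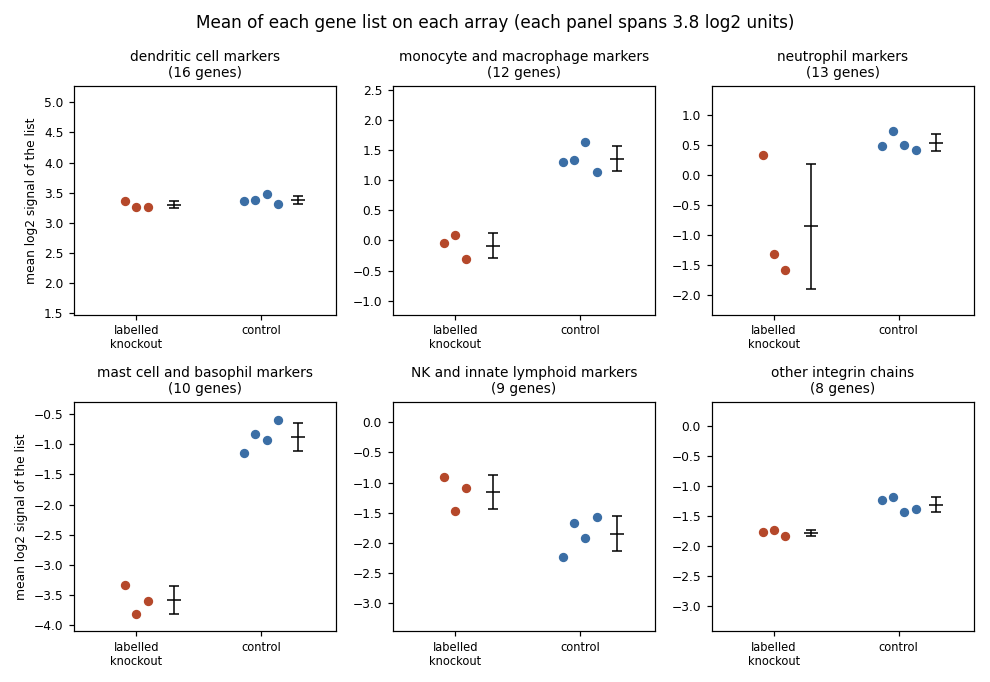
Mean log2 signal, relative to the 75th percentile of each array, over the tested genes of 6 lists, for 3 arrays labelled knockout (left) and 4 control arrays (right). Bars give the mean ± SD. The dendritic cell markers overlap between the groups. The monocyte and macrophage, neutrophil, mast cell and basophil and other integrin chain lists are lower on every array labelled knockout. The natural killer and innate lymphoid list is higher on every array labelled knockout.

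Itgam, Itgax and Itgad follow one another on mouse chromosome 7, with 2 pseudogenes between them in the RefSeq annotation of GRCm38.p6, and Itgal lies on the same chromosome. RefSeq promoter sequence was matched for 6 of the 10 chains, Itgam, Itgax, Itga4, Itgb1, Itgb7 and Itga5, and not for Itgal, Itgad, Itgb2 and Itga6. The 250 bases before the annotated start of Itgam and of Itgax are shown because these neighbouring genes encode alternative partners of Itgb2, and Itgam had the smallest p of the chains. They are chr7:128062390-128062639 for Itgam and chr7:128129300-128129549 for Itgax, both on the plus strand of GRCm38.p6 from RefSeq, written 5′ to 3′. Capitals mark matches on either strand to AGATAA or TGATAA, forms of the site that GATA factors bind, and to GAGGAA, a form of the site bound by the myeloid factor PU.1.
Itgam: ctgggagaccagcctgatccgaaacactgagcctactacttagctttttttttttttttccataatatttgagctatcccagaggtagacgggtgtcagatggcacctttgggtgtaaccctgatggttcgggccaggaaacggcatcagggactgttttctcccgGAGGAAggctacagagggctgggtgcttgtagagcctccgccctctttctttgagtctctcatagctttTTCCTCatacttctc
Itgax: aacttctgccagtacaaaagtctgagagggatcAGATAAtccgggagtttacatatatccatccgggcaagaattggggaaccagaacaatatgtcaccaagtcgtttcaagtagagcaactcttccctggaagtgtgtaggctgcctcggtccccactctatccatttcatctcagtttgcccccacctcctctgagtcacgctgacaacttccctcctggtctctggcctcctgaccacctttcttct

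The Itgam window holds GAGGAA on the plus strand, starting 84 bases before the annotated start, and again on the minus strand, 15 bases before it. The Itgax window holds AGATAA starting 217 bases before the start. Among the 6 matched chains, 3 windows hold GAGGAA (Itgam, Itgb1 and Itga5) and 1 holds AGATAA or TGATAA (Itgax). Of 32851 promoter windows of this length in the table, 23.3% hold GAGGAA, 9.99% AGATAA and 7.94% TGATAA, and none of these motifs overlapped another in the 2 windows shown. These matches describe letters and no binding was measured.

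Itgad, the CD11d chain of tissue macrophages, was the only beta2 partner with a higher mean in the arrays labelled knockout. Its probe read -1.47, -1.24 and -1.27 there and -1.73, -1.71, -1.56 and -1.93 in controls. The groups did not overlap. The log2 fold change was 0.40 (SE 0.14, 95% interval 0.07 to 0.74) and did not pass (limma adjusted p = 0.352). Over the alternatives it stayed between 0.32 and 0.48, with an adjusted p of at least 0.0972.

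Itgal, the LFA-1 chain that binds ICAM-1, was read by a pair of probes that gave like values. Probe A_51_P466378 stood at 1.45, 1.68 and 1.47 in the arrays labelled knockout and 1.57, 2.04, 1.55 and 1.85 in controls, with overlap. The log2 fold changes were -0.22 and -0.26 (SE 0.17 and 0.16, limma adjusted p = 0.687 and 0.624). For A_51_P466378 the 95% interval was -0.61 to 0.17, and without control replicate 2 the values were -0.13 and -0.16.

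Itgb2, the chain that all 4 of these alpha chains need, read 3.45, 4.08 and 3.60 in the arrays labelled knockout and 3.96, 3.76, 3.88 and 4.06 in controls. Replicate 2 labelled knockout was the highest of the 7 arrays and replicate 1 the lowest. It averaged 3.71 ± 0.33 over arrays labelled knockout (SD, n = 3) and 3.92 ± 0.13 over controls (SD, n = 4). This was a log2 fold change of -0.21 (SE 0.18, limma adjusted p = 0.724), with a 95% interval from -0.63 to 0.21. It was -0.080 without replicate 1 labelled knockout and -0.40 without replicate 2.

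**Figure D3:**
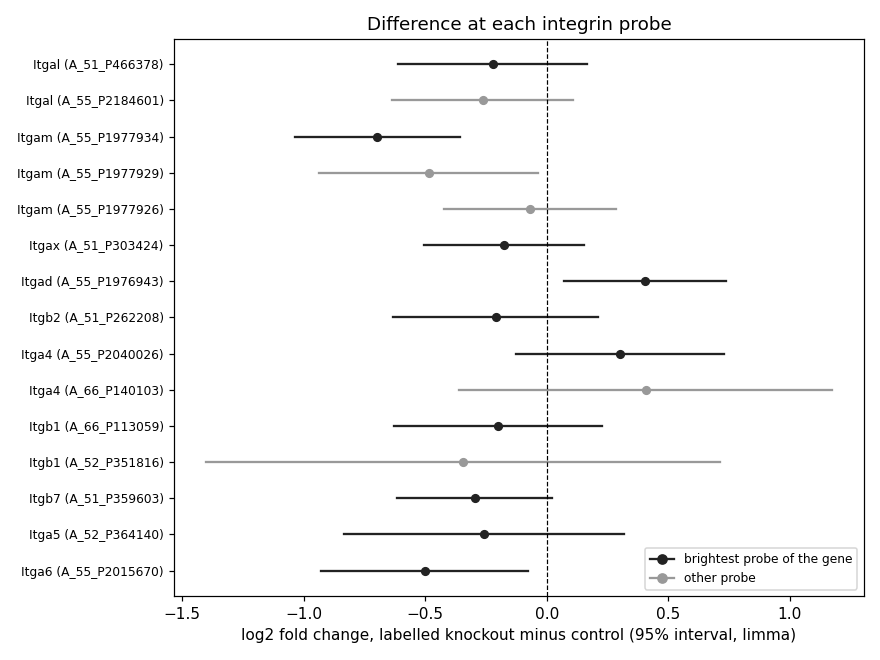
Log2 fold change (labelled knockout minus control) at each of the 15 integrin probes, with the 95% interval from limma. Black marks the brightest probe of each gene and grey the other probes. The intervals of 2 Itgam probes, of Itgad and of Itga6 leave out 0, and no probe passed the adjusted threshold.

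Among the chains outside the beta2 group, Itga4, the alpha chain of VLA-4, had a higher mean in the arrays labelled knockout. Probe A_55_P2040026 read 4.63, 4.80 and 4.79 there and 4.26, 4.79, 4.56 and 4.14 in controls, and control replicate 2 lay inside the other group's range. The log2 fold change was 0.30 (SE 0.18, 95% interval -0.13 to 0.73, limma adjusted p = 0.624). The second Itga4 probe, A_66_P140103, was measured above background by 3 of 3 arrays labelled knockout and 2 of 4 controls, and had a log2 fold change of 0.41 (SE 0.33, limma adjusted p = 0.708). With single arrays left out that value ran from 0.17 to 0.75.

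Itgb7, the chain that forms the gut-homing integrin with Itga4, read 5.50, 5.44 and 5.17 in the arrays labelled knockout and 5.64, 5.58, 5.75 and 5.71 in controls. All 3 arrays labelled knockout lay below all 4 controls, by a small step. This gave a log2 fold change of -0.30 (SE 0.14, 95% interval -0.61 to 0.02, limma adjusted p = 0.512), and -0.20 without replicate 3 labelled knockout.

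Itgb1, the common beta chain of the VLA integrins, read 2.14, 2.63 and 2.27 in the arrays labelled knockout and 2.38, 2.36, 2.61 and 2.84 in controls at probe A_66_P113059. The groups overlapped, with a log2 fold change of -0.20 (SE 0.18, limma adjusted p = 0.741). It was -0.096 without replicate 1 labelled knockout, -0.34 without replicate 2 and -0.10 without control replicate 4. Probe A_52_P351816 was far less even, at -4.40, -2.66 and -2.62 in the arrays labelled knockout and between -3.31 and -2.36 in controls. Its log2 fold change was -0.35 (SE 0.46, limma adjusted p = 0.830), and 0.24 without replicate 1 labelled knockout, so the sign of that probe rests on that array.

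Itga6, the laminin receptor chain also carried by blood stem cells and platelets, was lower in the arrays labelled knockout. Replicate 1 labelled knockout was level with the array's 75th percentile, replicates 2 and 3 stood at 0.50 and 0.58, and controls at 0.75, 0.71, 1.04 and 0.95. The groups did not overlap. The log2 fold change was -0.50, or 1.42-fold lower (SE 0.18, 95% interval -0.93 to -0.08), and did not pass (limma adjusted p = 0.365). Without replicate 1 it was -0.32.

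Itga5, the fibronectin receptor chain, was well above background on all 7 arrays. It read -4.91, -4.79 and -4.62 in the arrays labelled knockout and -4.40, -4.89, -3.93 and -4.84 in controls. The controls spread more widely than the arrays labelled knockout and overlapped them, with a log2 fold change of -0.26 (SE 0.25, 95% interval -0.84 to 0.32, limma adjusted p = 0.753). Without control replicate 3 it was -0.063.

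The groups did not overlap for 4 of the 10 chains, Itgad on the higher side and Itgam, Itgb7 and Itga6 on the lower. Over the brightest probes of all genes, 5.78% were separated upward and 8.08% downward, 13.9% in all. With 10 genes chosen by family no test was made of that share.

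Because a chain needs its partner, each alpha chain was also set against its beta chain within each array, which removes the array's scaling. Such a difference shows unequal change of a pair of probes and says nothing of their relative amounts. Of 8 textbook pairs compared, none passed after adjustment over the pairs, and with 35 possible splits of 7 arrays the smallest p is 0.0286. With 2 pairs at that p the adjusted value is 0.114, so neither could pass alone in this design. Itgam minus Itgb2 was -0.47, -0.85 and -0.76 in the arrays labelled knockout and -0.19, -0.19, -0.06 and -0.39 in controls. Every array labelled knockout lay below the controls, by 0.49 on the log2 scale in the mean (two-sided exact permutation p = 0.0286, adjusted p = 0.114). Itgad minus Itgb2 moved the other way, at -4.92, -5.32 and -4.87 in the arrays labelled knockout against -5.69, -5.47, -5.44 and -5.99 in controls. All 3 arrays labelled knockout lay above the controls, with a difference of 0.61 (exact permutation p = 0.0286, adjusted p = 0.114).

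For Itgal and Itgax against Itgb2 the differences were -0.01 and 0.03 (exact permutation adjusted p = 0.943 for each). Replicate 2 labelled knockout stood alone for Itgax minus Itgb2, at -0.89 against 0.05 and -0.04 on replicates 1 and 3, and without it the difference was 0.33. Itga4 differed by 0.50 against Itgb1 and by 0.60 against Itgb7, where the groups overlapped only through control replicate 2 (exact permutation adjusted p = 0.229 for each). Without control replicate 4 the difference against Itgb1 was 0.31. Itga5 and Itga6 against Itgb1 differed by -0.06 and -0.30 (exact permutation adjusted p = 0.943 and 0.229).

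**Figure D4:**
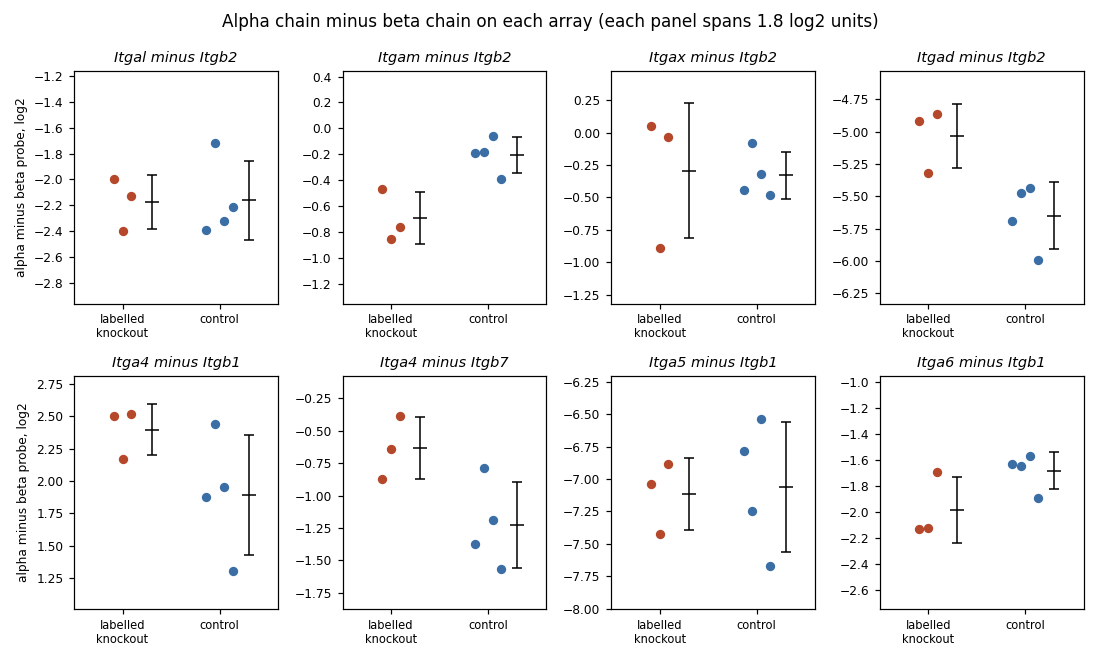
Log2 signal of the alpha chain's brightest probe minus that of its beta chain on each array, for 8 heterodimers, with 3 arrays labelled knockout left of 4 control arrays. Bars give the mean ± SD. Itgam minus Itgb2 is lower and Itgad minus Itgb2 higher on every array labelled knockout.

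Among 16 other integrin chains, 14 had a named probe and 8 were tested, of which 1 fell and none rose. The median log2 fold change was -0.44. Itgb3, the beta chain shared by the platelet fibrinogen receptor and the vitronectin receptor, fell by 0.97 on the log2 scale, or 1.96-fold (SE 0.16, limma adjusted p = 0.0279). It averaged 2.39 ± 0.08 over arrays labelled knockout (SD, n = 3) and 3.36 ± 0.21 over controls (SD, n = 4). Its alpha partners Itga2b and Itgav, looked up after this was seen, had log2 fold changes of -0.27 and -0.12 and did not pass (limma adjusted p = 0.749 and 0.909). Of 10 megakaryocyte and platelet markers, all tested, 1 fell, Gp1bb, a chain of the von Willebrand factor receptor, by 2.24-fold (limma adjusted p = 0.0177). The mean of that list ran from -1.54 to -0.96 in the arrays labelled knockout and from -0.63 to 0.09 in controls, and its part in the Itgb3 and Itga6 differences was not tested.

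Genes that bind integrins or switch them on did not pass. Of 17 ligand genes, 12 were tested with a median log2 fold change of 0.14. Fn1, fibronectin, had the most negative value at -1.20 (SE 0.24, limma adjusted p = 0.0687). Jam2, a junctional adhesion molecule, had the most positive but no control array measured it above background, and it was at least 1.53-fold higher against each control array's dimmest signal counted as well above background (limma adjusted p = 0.398). Of 30 activation and adhesion adaptors, 28 were tested with a median of -0.09. Talin-1 and kindlin-3, encoded by Tln1 and Fermt3 and needed for integrin activation, had log2 fold changes of 0.05 and -0.03 (limma adjusted p = 0.944 and 0.976). Rapgef3, an exchange factor for Rap1, had a log2 fold change of 0.70 (limma adjusted p = 0.339).

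Several integrin chains also mark cells other than dendritic cells. Of 12 mast cell and basophil markers, 10 were tested and 6 fell, with list means from -3.82 to -3.34 in the arrays labelled knockout and from -1.15 to -0.59 in controls. Cpa3, the mast cell carboxypeptidase, fell 32.5-fold (limma adjusted p = 0.000273). Mast cell precursors also carry Itga4 and Itgb7, whose values are given above. Of 11 natural killer and innate lymphoid markers, 9 were tested and 3 rose (Gzma, Nkg7 and Eomes), with a median log2 fold change of 0.52 and list means from -1.47 to -0.90 in the arrays labelled knockout and from -2.23 to -1.58 in controls. Within that list Gzmb, Klrk1, Klrd1 and Prf1, looked up after their values were seen, had negative log2 fold changes of -2.39, -0.67, -0.58 and -0.16 and did not pass (limma adjusted p = 0.342, 0.219, 0.407 and 0.767). Of 16 T cell markers, 12 were tested and 1 rose, Lck, a kinase of the T cell receptor, by 3.07-fold (limma adjusted p = 0.000769). None of 8 tested B cell markers and none of 8 tested stromal and endothelial markers passed, with median log2 fold changes of 0.29 and 0.03. The part of any of these cells in the integrin values was not tested.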

How the data were processed

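Spot intensity was deposited by the authors as scanner output with a background-corrected processed signal; per the file headers, the software was Agilent Feature Extraction 10.7.3.1. The deposited series table holds log2 values centred per probe, a scale found by comparison with the scanner values, and its column medians were 0 except -0.02 for replicate 3 labelled knockout. Here the 75th percentile of an array's gene spots (2671 to 3825 intensity units) was subtracted on the log2 scale, without outlier spots and with repeated spots averaged. Probes that at least 3 of 7 arrays measured well above background were fitted with lmFit and eBayes (limma 3.58.1, R 4.3.3), adjusted over all 34130 probes, with 5 residual and 2.72 prior degrees of freedom. RefSeq accessions named 26413 probes (47.4%). A gene was read from its brightest tested probe. Arrays labelled knockout had 61.5% to 67.4% of spots above background, and controls 54.1% to 56.9%. The number of arrays limits the precision. Named genes are the members, Gata2 and, per list, up to 4 passing genes a direction or the 2 largest changes. Flt3, Zbtb46, Tln1, Fermt3, Itga2b, Itgav, Gzmb, Klrk1, Klrd1 and Prf1 were added after their values were seen. Members and lists were chosen with earlier results of these data known. Background correction, normalization, filters, floors, weights and arrays left out were tried as alternatives (normexp on the median signal, with an offset of 50). The fit was also run on simulated data with independent noise. That simulation held no shared array effects and no background, so it does not bear on those choices. Values of 2 listed genes are not reported here.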

Additional observations from a re-analysis of the deposited data

How the results depend on the processing

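Over 21 alternatives no chain was called higher, and 1 chain, Itgam, was called lower with normexp background correction, no filter, an intensity trend, array weights or 1 probe per gene of highest mean. With each array left out in turn, no chain was called in either direction. Over all 34130 tested probes, 286 were called higher and 178 lower. Normexp gave 300 lower, array weights 757 higher and 558 lower, and a floor at each array's dimmest signal 398 lower. An intensity trend gave 302 higher and 227 lower. Without a filter 55678 probes were tested, with 847 higher and 9267 lower. Leaving out arrays gave 84 to 248 higher and 95 to 162 lower. The higher count was 105, 168 and 84 without replicates 1, 2 and 3 labelled knockout, and the lower count 95 without replicate 3. The labels do not say whether the replicate numbers pair the arrays. Deviations of same-numbered arrays correlated at -0.06, -0.08 and -0.02, which cannot settle it. With the replicate number as a block, in which control replicate 4 has no partner, 81 probes were higher and 71 lower, and the third Itgam probe (A_55_P1977926) stood at 0.013. The following crossed 0, none of them called. Itgax minus Itgb2 was -0.0066 with normexp, and Itga5 minus Itgb1 was 0.087 with the probes of largest interquartile range. Over arrays left out, Itgal minus Itgb2 ran from -0.10 to 0.13, Itgax minus Itgb2 from -0.14 to 0.33 and Itga5 minus Itgb1 from -0.26 to 0.12. Likewise A_55_P1977926 ran from -0.15 to 0.013 and the dim Itgb1 probe from -0.65 to 0.24. No filter moved the median of all probes to -0.14, and the cause of each difference was not tested.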
